A study of Homo sapiens with 6 samples.

Results

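The genes described here are NF-kB targets, cytokines and chemokines: the secreted messengers that recruit and activate immune cells, the NF-kB subunits and inhibitors that control them, and a few adhesion molecules and enzymes induced by the same factor. The list holds 39 genes, chosen by symbol. Of these, 37 had a probe set that the array annotation gives to 1 gene symbol, among 18417 genes in all. CSF2 and BIRC3 had none and are named only. Where a gene had several probe sets, the brightest over the 6 arrays was taken. Genes in the lowest 25% by mean level, under 4.28 on the log2 scale, were left out of the tests, which left 27 members among 13812 genes. The other 10 members (IL1A, IL33, TNF, CXCL2, CXCL6, CXCL10, CXCL11, CCL7, CCL20 and PTGS2) are given from a fit without this filter.

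A172, T98G and U87MG are established lines from human glioblastoma, a malignant brain tumour. Each line received pre-miR338-5p, a precursor molecule that raises miR-338-5p in the cell and is called the mimic here, or a negative control, and was harvested 24 hours after transfection. The stated aim was to find targets of this microRNA. RNA was hybridised to Affymetrix Human Gene 1.0 ST arrays, 1 array for each line and treatment, so that the groups are A172, T98G and U87MG with the mimic (3 arrays) and the same lines with the control (3 arrays). The labels do not say whether an array stands for 1 culture or several, so p-values measure only the spread between these samples. All levels are log2 values after RMA, the authors' background correction, quantile normalisation and probe summary; a difference of 1 is a doubling. Levels of different genes are not compared, since each probe set has its own brightness. The arrays measure bulk RNA, in which fewer cells making a transcript and less of it per cell cannot be told apart.

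NF-kB is a family of transcription factors made of paired subunits. In resting cells inhibitor proteins hold the dimers in the cytoplasm, and signals from receptors for TNF, interleukins or microbial products lead to destruction of the inhibitors and to entry of NF-kB into the nucleus, where it binds kappa B sites and switches on cytokine and chemokine genes. Several of its targets, such as NFKBIA and TNFAIP3, shut the pathway off again. In glioblastoma these cytokines are known for drawing myeloid cells into the tumour and for acting on the tumour cells themselves.

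The microRNA delivered by the mimic is shown because its seed, bases 2 to 8 and in capitals, decides which messages it can pair with. It is encoded on the minus strand of GRCh38.p14 at chr17:81125923-81125944, and the sequence is from RefSeq.
hsa-miR-338-5p: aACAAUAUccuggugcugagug
A message would pair with this seed through AUAUUGU. The 3′ ends of the members' messages were not analysed here for it.

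RefSeq promoters, from 250 bases before to 50 after each gene's start, were at hand for 33 of the 39 members. The kappa B consensus, searched on both strands, was present in at least 1 promoter of 18 of these (54.5%), beside 7.09% of all 27305 genes in the same table. The list was drawn up from known NF-kB targets, so this share is a description of the list. The AP-1 motif TGANTCA was found in 5 members (15.2%, beside 9.37% of all genes) and TTTCNNTTTC, the core of the interferon response element, in 3 (CXCL10, RELA and VCAM1, 9.09%, beside 4.38%). None of the members' kappa B matches overlapped a match of either other motif. A selection of these matches is printed with up to 15 bases on either side. Those of BIRC3, CCL20, CXCL10, CXCL11, NFKB2 and TNFAIP3 are left out, as is another match of NFKBIZ. Capitals mark the kappa B match, and the build is GRCh38.p14.
CXCL1 (chr4:73869299-73869339, plus strand): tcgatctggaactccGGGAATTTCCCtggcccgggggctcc
CXCL2 (chr4:74099248-74099288, minus strand): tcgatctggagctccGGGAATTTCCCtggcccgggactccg
CXCL3 (chr4:74038743-74038783, minus strand): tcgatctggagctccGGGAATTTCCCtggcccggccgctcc
CXCL5 (chr4:73998743-73998783, minus strand): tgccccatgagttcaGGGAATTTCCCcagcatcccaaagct
CXCL6 (chr4:73836573-73836613, plus strand): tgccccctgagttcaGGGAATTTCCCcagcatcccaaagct
IL6 (chr7:22727112-22727151, plus strand): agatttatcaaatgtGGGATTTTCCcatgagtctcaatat
IL32 (chr16:3065289-3065329, plus strand): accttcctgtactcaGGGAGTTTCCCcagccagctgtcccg
VCAM1 (chr1:100719665-100719704, plus strand): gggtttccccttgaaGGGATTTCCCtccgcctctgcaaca
NFKB1 (chr4:102501295-102501334, plus strand): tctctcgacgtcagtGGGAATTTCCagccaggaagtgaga
NFKBIA (chr14:35404806-35404845, minus strand): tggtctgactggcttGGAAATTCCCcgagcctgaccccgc
NFKBIZ (chr3:101827752-101827791, plus strand): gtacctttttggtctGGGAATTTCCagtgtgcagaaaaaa
IRF1 (chr5:132490799-132490838, minus strand): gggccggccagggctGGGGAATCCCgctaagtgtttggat
The 5 CXC genes carried the same 11 letters at nearly the same distance, with the first letter 78 to 91 bases before the start. Over 120 bases aligned on this match, CXCL1 and CXCL3 were identical at 92.5% of positions, CXCL5 and CXCL6 at 89.2%, and CXCL1 and CXCL2 at 76.7%. A match is a run of letters, not a measured binding site, and its absence elsewhere says nothing about the factor.

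Array medians lay between 5.06 and 5.14. Over probe sets, r was 0.992 to 0.993 within a line and 0.954 to 0.962 between lines. Of the markers of astrocytes and glioblastoma cells, 7 of 8 were above the filter, with VIM between 11.88 and 12.65 and CD44 between 11.48 and 11.90, while GFAP stood between 5.07 and 5.39 and S100B was below the filter. Of 7 leukocyte markers 5 were below the filter, and the other two, CD14 and ITGAM, stood between 4.02 and 4.92. Of 5 endothelial markers 3 were below it by their mean, among them KDR, which stood at 5.89 (mimic) and 5.71 (control) in U87MG and at most at 3.65 in the other lines. CDH5 stood between 4.17 and 4.55, and TEK, a vascular receptor kinase, stood at 6.28 (mimic) and 6.26 (control) in A172 and at most at 4.53 in the other lines.

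Members differed between lines in 17 to 21 cases per pair, and 0 were called after the mimic. Each line had its own set of high members: CCL2, CXCL12, VCAM1, TRAF1 and IRF1 in T98G, IL1B, CSF3, CXCL8 and NFKBIZ in U87MG, and IL32 in A172. A172 was lower than both other lines in 9 members and U87MG in 7, beside 15.2% and 12.6% of all genes. With the treatment as an additive term and limma's test at an adjusted p under 0.05, A172 differed from T98G in 17 members (3 higher and 14 lower), beside 50.5% of all genes tested, with 25.1% higher and 25.4% lower. A172 differed from U87MG in 21 members (8 higher and 13 lower), beside 54.2% of all genes (27.3% higher and 26.9% lower). T98G differed from U87MG in 19 members (11 higher and 8 lower), beside 47.1% of all genes (23.6% higher and 23.5% lower).

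Each pair of comparisons shares the arrays of 1 line, so the 3 counts are not independent. A member that reached the test only through the line where it was high had to differ, as for CXCL12, VCAM1 and IL1B, and the counts carry no weight as support. Against the mean of T98G and U87MG, A172 had 23 of 27 members called, 6 higher and 17 lower, beside 54.4% of all genes (27% higher and 27.4% lower). The median difference over the 27 tested members was -0.58, against 0.036 over all genes tested. Without the filter 19 of 37 members were called for A172 minus T98G (beside 37.1% of all genes), 24 for A172 minus U87MG (beside 41%) and 25 for T98G minus U87MG (beside 35%). Against the mean of the other lines 26 of 37 were then called, 6 higher and 20 lower, beside 41.4% of all genes (20.3% higher and 21.1% lower).

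By the pairwise tests, 9 members (33.3%) were lower in A172 than in both other lines, namely CXCL8, ICAM1, IL1B, IL6, IRF1, NFKBIA, RELB, SOD2 and TNFAIP3 (IL1B lay below the filter level in A172 and T98G), beside 15.2% of all genes, and 2 (CCL5 and IL32) were higher than in both, beside 14.5%. T98G was higher than both other lines in 6 members (CCL2, CXCL12, IL6, IRF1, TRAF1 and VCAM1, beside 12.1%) and lower in 1 (IL11, beside 11.6%). U87MG was higher than both in 7 (CSF3, CXCL1, CXCL5, CXCL8, ICAM1, IL1B and NFKBIZ, beside 13.6%) and lower in 7 (CCL2, CX3CL1, CXCL16, IL32, NFKB2, TNFAIP2 and VCAM1, beside 12.6%). All 3 pairs differed for 8 members (CCL2, CXCL8, ICAM1, IL1B, IL32, IL6, IRF1 and VCAM1), beside 19.6% of all genes. CXCL3 and RELA differed in no pair, as did 27.8% of all genes.

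**Figure D1:**
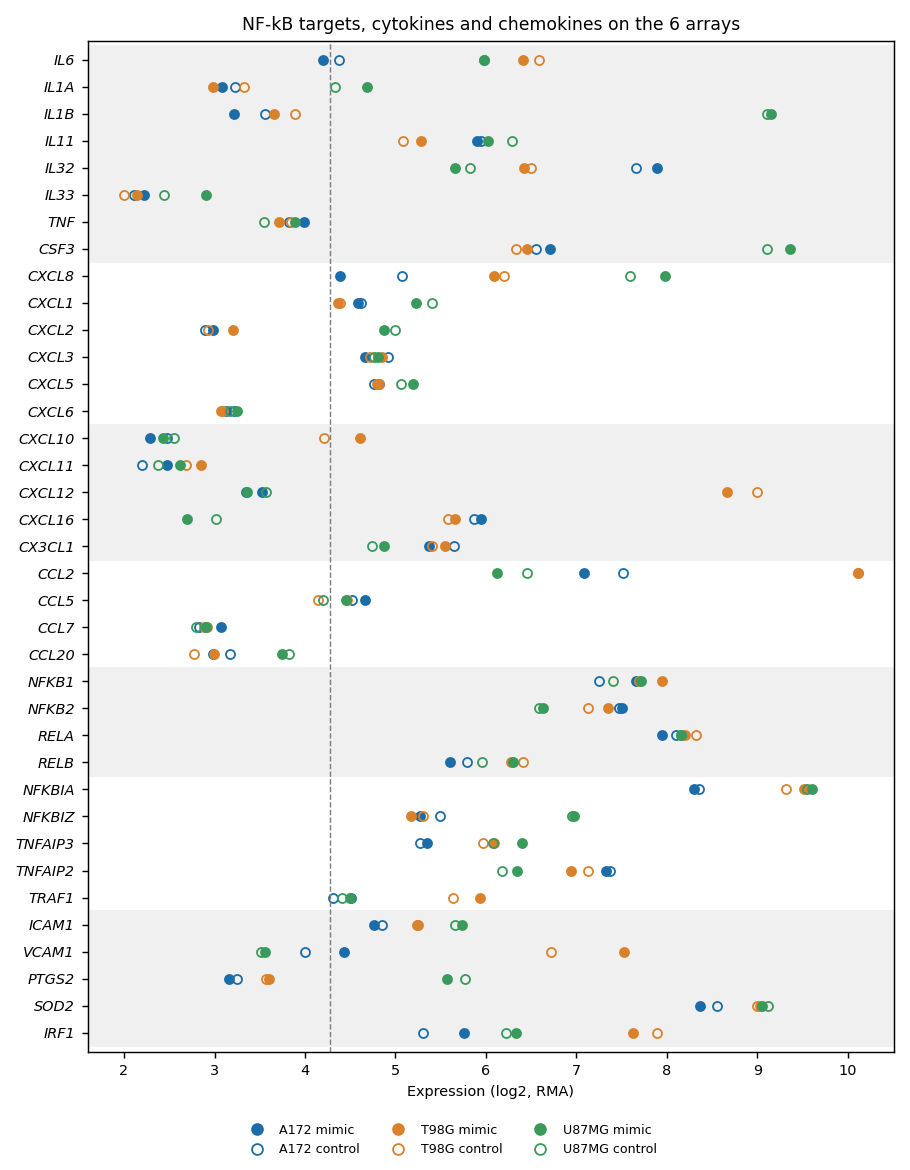
Log2 RMA level of each of the 37 members on the 6 arrays (horizontal axis), with filled circles for the mimic, open circles for the control, colours for the lines, and a dashed line at the filter level of 4.28; grey bands separate the role groups. The circles of 1 line lie close together for most members, while lines stand several units apart for IL1B (9.15 with the mimic and 9.11 with the control in U87MG), CXCL12 (8.67 with the mimic and 9.0 with the control in T98G) and CCL2 (10.11 on both T98G arrays).

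Among the interleukins and colony-stimulating factors, the lines parted most on IL1B, a cytokine that starts fever and local inflammation. IL1B stood at 3.21 (mimic) and 3.56 (control) in A172, 3.66 (mimic) and 3.88 (control) in T98G, and 9.15 (mimic) and 9.11 (control) in U87MG. Both U87MG arrays were far above the other 4, which lay below the filter level. A172 minus U87MG was -5.74 ± 0.12 (adjusted p = 4.28e-07) and T98G minus U87MG was -5.36 ± 0.12 (adjusted p = 6.75e-07) by limma. In differences between lines and between responses, here and below, the value after the sign is the SE. In means of mimic minus control it is the SD over the lines. IL1B was thus 53.5-fold and 40.9-fold lower in those lines than in U87MG. Since the low side lies below the filter, the sizes are uncertain. A172 minus T98G was -0.39 ± 0.12 (adjusted p = 0.0296), a difference between lines that both lie below the filter level, and its call was lost without the treatment term (adjusted p = 0.0571). IL1A, its neighbour on chromosome 2 and a ligand of the same receptor, lay below the filter by its mean. IL1A stood at 3.08 (mimic) and 3.22 (control) in A172, 2.98 (mimic) and 3.32 (control) in T98G, and 4.69 (mimic) and 4.33 (control) in U87MG. The U87MG arrays were again the highest, and without the filter A172 minus U87MG was -1.36 ± 0.17 (adjusted p = 0.00109).

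CSF3, the growth factor of neutrophils, was also high in U87MG. CSF3 stood at 6.71 (mimic) and 6.55 (control) in A172, 6.46 (mimic) and 6.33 (control) in T98G, and 9.36 (mimic) and 9.11 (control) in U87MG. A172 and T98G lay together and U87MG stood apart, with A172 minus U87MG at -2.60 ± 0.090 (adjusted p = 2.49e-06) and T98G minus U87MG at -2.84 ± 0.090 (adjusted p = 1.97e-06). IL6, which signals through the shared chain IL6ST and drives acute-phase responses, was lowest in A172. IL6 stood at 4.20 (mimic) and 4.38 (control) in A172, 6.41 (mimic) and 6.58 (control) in T98G, and 5.97 (mimic) and 5.98 (control) in U87MG. The A172 arrays stood near the filter level and below the other 4. A172 lay below T98G, at -2.21 ± 0.095 (adjusted p = 6.98e-06), or 4.61-fold lower, and A172 minus U87MG was -1.69 ± 0.095 (adjusted p = 1.95e-05); T98G was also above U87MG, by 0.52 ± 0.095 (adjusted p = 0.00429).

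IL32, a cytokine of activated immune and epithelial cells, ran the other way. IL32 stood at 7.89 (mimic) and 7.66 (control) in A172, 6.42 (mimic) and 6.50 (control) in T98G, and 5.66 (mimic) and 5.82 (control) in U87MG. Both A172 arrays were above the T98G arrays, and these above the U87MG arrays. A172 exceeded T98G by 1.31 ± 0.12 (adjusted p = 0.000165) and U87MG by 2.03 ± 0.12 (adjusted p = 2.21e-05), or 4.09-fold. IL11, a relative of IL6 that also signals through IL6ST, was lowest in T98G. IL11 stood at 5.91 (mimic) and 5.95 (control) in A172, 5.29 (mimic) and 5.08 (control) in T98G, and 6.02 (mimic) and 6.28 (control) in U87MG. The T98G arrays lay below all others, with A172 minus T98G at 0.74 ± 0.13 (adjusted p = 0.00284) and T98G minus U87MG at -0.97 ± 0.13 (adjusted p = 0.00095), while A172 and U87MG differed by -0.22 ± 0.13 (adjusted p = 0.177). TNF, whose probe sets gave the same values 3 times, lay below the filter, between 3.54 and 3.99 on all 6 arrays. IL33, an alarm cytokine released from damaged cells, stood at 2.23 (mimic) and 2.11 (control) in A172, 2.14 (mimic) and 2.0 (control) in T98G, and 2.91 (mimic) and 2.45 (control) in U87MG. All 6 lay under the filter level with U87MG highest, and without the filter A172 minus U87MG was -0.51 ± 0.12 (adjusted p = 0.0156) and T98G minus U87MG was -0.61 ± 0.12 (adjusted p = 0.00919).

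The neutrophil-attracting CXC chemokines act on the receptors CXCR1 and CXCR2, both below the filter here. CXCL8, the main one in humans, was ordered U87MG, T98G, A172. CXCL8 stood at 4.39 (mimic) and 5.08 (control) in A172, 6.09 (mimic) and 6.20 (control) in T98G, and 7.98 (mimic) and 7.60 (control) in U87MG. The lines did not overlap, although the A172 arrays were themselves 0.69 apart. A172 minus T98G was -1.41 ± 0.23 (adjusted p = 0.00218), A172 minus U87MG was -3.06 ± 0.23 (adjusted p = 6.49e-05), or 8.31-fold lower, and T98G minus U87MG was -1.64 ± 0.23 (adjusted p = 0.00123). CXCL1 and CXCL5 were highest in U87MG by smaller margins. CXCL1 stood at 4.58 (mimic) and 4.62 (control) in A172, 4.36 (mimic) and 4.39 (control) in T98G, and 5.23 (mimic) and 5.41 (control) in U87MG. CXCL5 stood at 4.82 (mimic) and 4.76 (control) in A172, 4.80 (mimic) and 4.81 (control) in T98G, and 5.20 (mimic) and 5.06 (control) in U87MG. The U87MG arrays were the highest of both genes, with A172 minus U87MG at -0.72 ± 0.092 (adjusted p = 0.000784) for CXCL1 and at -0.34 ± 0.091 (adjusted p = 0.0191) for CXCL5; the CXCL5 call was lost with a variance prior that follows the mean level (adjusted p = 0.0555).

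CXCL2 lay below the filter by its mean but was also a U87MG gene. CXCL2 stood at 2.98 (mimic) and 2.90 (control) in A172, 3.21 (mimic) and 2.93 (control) in T98G, and 4.88 (mimic) and 5.00 (control) in U87MG. Without the filter A172 minus U87MG was -2.0 ± 0.12 (adjusted p = 5.24e-05) and T98G minus U87MG was -1.87 ± 0.12 (adjusted p = 7.25e-05). CXCL3 and CXCL6 showed no such step. CXCL3 lay between 4.66 and 4.92 on all 6 arrays, with A172 minus U87MG at 0.0067 ± 0.12 (adjusted p = 0.967), and CXCL6 between 3.07 and 3.25. Of the 5 genes that share the printed 11-letter match, CXCL1, CXCL2 and CXCL5 were highest in U87MG, and CXCL3 and CXCL6 showed no step. CXCL1 and CXCL3, the pair with the most alike promoters, differed in whether U87MG stood apart. CXCL6 lay under the filter level of 4.28 on all 6 arrays, as did CXCL2 in A172 and T98G. CXCL3 stood not far above that level. An order of lines therefore cannot be read for CXCL6, and the flat values of CXCL3 say little about it. CXCL1, CXCL2 and CXCL3 are close copies of each other, and whether their probe sets pick up each other's message was not tested.

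Of the other chemokines, CXCL12, the ligand of CXCR4 that guides stem cells and lymphocytes, was high in T98G alone among the 3 lines. CXCL12 stood at 3.52 (mimic) and 3.35 (control) in A172, 8.67 (mimic) and 9.0 (control) in T98G, and 3.36 (mimic) and 3.57 (control) in U87MG. Both T98G arrays were high and the other 4 lay below the filter level. A172 minus T98G was -5.40 ± 0.13 (adjusted p = 9.78e-07) and T98G minus U87MG 5.37 ± 0.13 (adjusted p = 9.78e-07), the largest T98G differences among the members tested, while A172 minus U87MG was -0.029 ± 0.13 (adjusted p = 0.868). CXCL16, a membrane-bound chemokine and ligand of CXCR6, was low in U87MG. CXCL16 stood at 5.95 (mimic) and 5.86 (control) in A172, 5.65 (mimic) and 5.58 (control) in T98G, and 2.70 (mimic) and 3.02 (control) in U87MG. The U87MG arrays lay below the filter level and the other 4 well above it, with A172 minus U87MG at 3.05 ± 0.12 (adjusted p = 4.71e-06) and T98G minus U87MG at 2.76 ± 0.12 (adjusted p = 7.88e-06).

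CX3CL1, fractalkine, which tethers microglia and other cells that carry CX3CR1, was lower in U87MG as well. CX3CL1 stood at 5.37 (mimic) and 5.64 (control) in A172, 5.54 (mimic) and 5.40 (control) in T98G, and 4.87 (mimic) and 4.74 (control) in U87MG. The U87MG arrays were the lowest, with A172 minus U87MG at 0.69 ± 0.13 (adjusted p = 0.00374) and T98G minus U87MG at 0.66 ± 0.13 (adjusted p = 0.00528). CXCL10 and CXCL11 are induced by interferon and bind CXCR3, and both lay below the filter by their mean. CXCL10 stood at 2.28 (mimic) and 2.47 (control) in A172, 4.61 (mimic) and 4.21 (control) in T98G, and 2.43 (mimic) and 2.56 (control) in U87MG. The T98G arrays were the highest, and without the filter A172 minus T98G was -2.03 ± 0.16 (adjusted p = 0.000168) and T98G minus U87MG was 1.91 ± 0.16 (adjusted p = 0.000206). CXCL11 stood at 2.47 (mimic) and 2.20 (control) in A172, 2.85 (mimic) and 2.68 (control) in T98G, and 2.62 (mimic) and 2.38 (control) in U87MG. The T98G arrays were the highest and those of A172 and U87MG overlapped, with A172 minus T98G at -0.43 ± 0.096 (adjusted p = 0.013) without the filter.

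CCL2, which draws monocytes to a tissue, was the T98G chemokine of the CC family. CCL2 stood at 7.08 (mimic) and 7.51 (control) in A172, 10.11 (mimic) and 10.11 (control) in T98G, and 6.13 (mimic) and 6.46 (control) in U87MG. The lines did not overlap, in the order T98G, A172, U87MG. Against T98G, A172 was at -2.81 ± 0.12 (adjusted p = 8.1e-06), or 7.03-fold lower, A172 minus U87MG was 1.00 ± 0.12 (adjusted p = 0.000657), and T98G minus U87MG was 3.82 ± 0.12 (adjusted p = 2.22e-06), or 14.1-fold higher. CCL7, its neighbour on chromosome 17 and a monocyte attractant too, lay between 2.79 and 3.08 with no step at T98G: its A172 minus T98G was 0.054 ± 0.11 (adjusted p = 0.744). CCL20, the ligand of CCR6, stood at 2.99 (mimic) and 3.17 (control) in A172, 2.99 (mimic) and 2.77 (control) in T98G, and 3.75 (mimic) and 3.82 (control) in U87MG. CCL20 lay under the filter level on all 6 arrays, with both U87MG arrays highest. By limma without the filter, A172 minus U87MG was -0.71 ± 0.12 (adjusted p = 0.0047) and T98G minus U87MG was -0.90 ± 0.12 (adjusted p = 0.00188).

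CCL5, which attracts T cells, was close to the filter level. CCL5 stood at 4.67 (mimic) and 4.52 (control) in A172, 4.47 (mimic) and 4.14 (control) in T98G, and 4.45 (mimic) and 4.20 (control) in U87MG. Both A172 arrays lay above the other 4, by a narrow margin. A172 exceeded T98G by 0.29 ± 0.093 (adjusted p = 0.0373) and U87MG by 0.27 ± 0.093 (adjusted p = 0.0476), calls that were lost without the filter, with repeated quantile normalisation, with the other variance prior and without the treatment term (adjusted p between 0.0623 and 0.166).

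**Figure D2:**
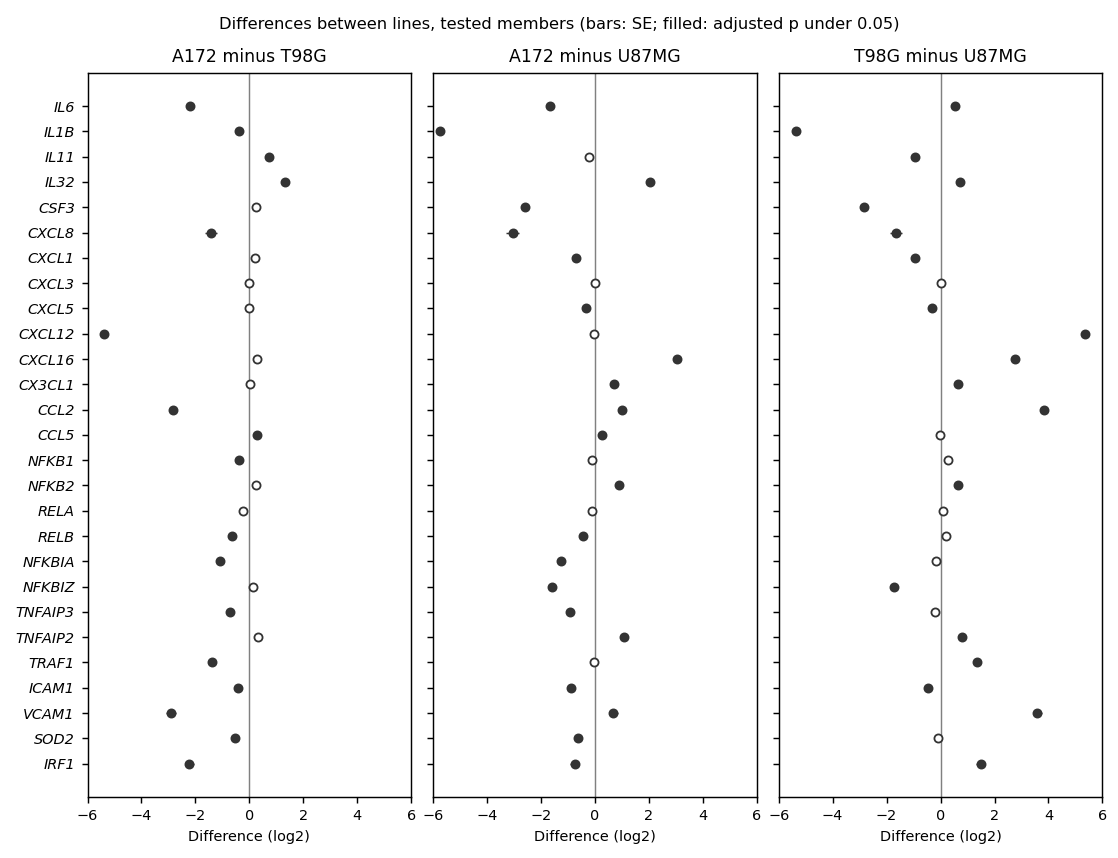
Differences between lines for the 27 members tested, on the log2 scale (horizontal axis), in panels for A172 minus T98G, A172 minus U87MG and T98G minus U87MG; bars are the SE, filled circles passed at an adjusted p under 0.05 and open circles did not. CXCL12 lies at -5.40 in the panel of A172 minus T98G, IL1B at -5.74 in that of A172 minus U87MG, and CXCL3 and RELA are open in all 3 panels.

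Of the 4 NF-kB subunits, 3 were called in at least 1 pair of lines, while 27.8% of all genes were called in no pair. RELA, the main activating subunit, lay between 7.95 and 8.32 on the 6 arrays and differed in no pair; A172 minus T98G was -0.24 ± 0.093 (adjusted p = 0.0742) and A172 minus U87MG was -0.13 ± 0.093 (adjusted p = 0.281). NFKB1 encodes the precursor of its usual partner. NFKB1 stood at 7.66 (mimic) and 7.25 (control) in A172, 7.95 (mimic) and 7.70 (control) in T98G, and 7.71 (mimic) and 7.41 (control) in U87MG. The control arrays of the lines spanned 7.25 to 7.70, and A172 minus T98G was -0.37 ± 0.092 (adjusted p = 0.0151), a call lost without the treatment term (adjusted p = 0.130).

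NFKB2, the precursor subunit of the noncanonical pathway, was lower in U87MG. NFKB2 stood at 7.50 (mimic) and 7.47 (control) in A172, 7.35 (mimic) and 7.13 (control) in T98G, and 6.63 (mimic) and 6.59 (control) in U87MG. The U87MG arrays were the lowest, with A172 minus U87MG at 0.88 ± 0.10 (adjusted p = 0.000372) and T98G minus U87MG at 0.63 ± 0.10 (adjusted p = 0.00188). RELB, its partner, was lowest in A172. RELB stood at 5.60 (mimic) and 5.79 (control) in A172, 6.28 (mimic) and 6.41 (control) in T98G, and 6.30 (mimic) and 5.96 (control) in U87MG. The A172 arrays lay below the other 4, with A172 minus T98G at -0.65 ± 0.14 (adjusted p = 0.00853) and A172 minus U87MG at -0.43 ± 0.14 (adjusted p = 0.039); the call against U87MG was lost without the filter and with arrays centred on their medians (adjusted p = 0.0574 and 0.0516).

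Of the 5 inhibitors and adaptors tested, NFKBIA and TNFAIP3 were lower in A172 than in both other lines. NFKBIA encodes the inhibitor that NF-kB itself induces and that holds it in the cytoplasm. NFKBIA stood at 8.30 (mimic) and 8.35 (control) in A172, 9.51 (mimic) and 9.32 (control) in T98G, and 9.61 (mimic) and 9.55 (control) in U87MG. Both A172 arrays lay below the other 4, which lay close together. A172 minus T98G was -1.09 ± 0.10 (adjusted p = 0.000177) and A172 minus U87MG was -1.25 ± 0.10 (adjusted p = 8.86e-05), or 2.38-fold lower, and T98G and U87MG differed by -0.16 ± 0.10 (adjusted p = 0.231). TNFAIP3, the ubiquitin-editing enzyme that ends the signal, was also lowest in A172. TNFAIP3 stood at 5.35 (mimic) and 5.27 (control) in A172, 6.09 (mimic) and 5.96 (control) in T98G, and 6.40 (mimic) and 6.08 (control) in U87MG. Both A172 arrays were again below the other 4, while the T98G and U87MG arrays overlapped. The differences were -0.72 ± 0.10 (adjusted p = 0.00121) for A172 minus T98G and -0.93 ± 0.10 (adjusted p = 0.000351) for A172 minus U87MG.

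NFKBIZ, a nuclear co-regulator needed for secondary targets such as IL6, followed U87MG. NFKBIZ stood at 5.27 (mimic) and 5.49 (control) in A172, 5.17 (mimic) and 5.31 (control) in T98G, and 6.98 (mimic) and 6.96 (control) in U87MG. The U87MG arrays stood apart, with A172 minus U87MG at -1.58 ± 0.10 (adjusted p = 3.05e-05) and A172 minus T98G at 0.14 ± 0.10 (adjusted p = 0.276). TRAF1, a TNF receptor adaptor, followed T98G. TRAF1 stood at 4.50 (mimic) and 4.31 (control) in A172, 5.94 (mimic) and 5.63 (control) in T98G, and 4.50 (mimic) and 4.41 (control) in U87MG. The T98G arrays were above all others, with A172 minus T98G at -1.38 ± 0.10 (adjusted p = 5.53e-05) and T98G minus U87MG at 1.33 ± 0.10 (adjusted p = 6.32e-05). TNFAIP2, a TNF-induced protein of membrane tubes, was lowest in U87MG. TNFAIP2 stood at 7.33 (mimic) and 7.38 (control) in A172, 6.94 (mimic) and 7.13 (control) in T98G, and 6.34 (mimic) and 6.18 (control) in U87MG. A172 minus U87MG was 1.09 ± 0.11 (adjusted p = 0.000268).

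Of the adhesion molecules, which hold leukocytes through their integrins, VCAM1 marked T98G. VCAM1 stood at 4.43 (mimic) and 4.0 (control) in A172, 7.52 (mimic) and 6.72 (control) in T98G, and 3.55 (mimic) and 3.51 (control) in U87MG. The T98G arrays were high and the U87MG arrays lay below the filter level, as did the A172 control. A172 minus T98G was -2.91 ± 0.17 (adjusted p = 2.81e-05), or 7.51-fold lower, and T98G minus U87MG was 3.59 ± 0.17 (adjusted p = 1.01e-05), or 12-fold higher. A172 minus U87MG was 0.68 ± 0.17 (adjusted p = 0.015), a call lost without the treatment term (adjusted p = 0.0636). ICAM1 was ordered U87MG, T98G, A172. ICAM1 stood at 4.77 (mimic) and 4.85 (control) in A172, 5.25 (mimic) and 5.24 (control) in T98G, and 5.74 (mimic) and 5.66 (control) in U87MG. The lines did not overlap, with A172 minus T98G at -0.44 ± 0.092 (adjusted p = 0.00715) and A172 minus U87MG at -0.89 ± 0.092 (adjusted p = 0.000288).

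Of the enzymes, SOD2, the superoxide dismutase of mitochondria, was lowest in A172. SOD2 stood at 8.37 (mimic) and 8.56 (control) in A172, 9.03 (mimic) and 8.99 (control) in T98G, and 9.06 (mimic) and 9.12 (control) in U87MG. Both A172 arrays were below the other 4, with A172 minus T98G at -0.55 ± 0.10 (adjusted p = 0.0034) and A172 minus U87MG at -0.62 ± 0.10 (adjusted p = 0.00177). PTGS2, the inducible cyclooxygenase of prostaglandin synthesis, lay below the filter by its mean. PTGS2 stood at 3.16 (mimic) and 3.25 (control) in A172, 3.60 (mimic) and 3.57 (control) in T98G, and 5.57 (mimic) and 5.77 (control) in U87MG. The U87MG arrays were the only ones above 4.28, and without the filter A172 minus U87MG was -2.46 ± 0.10 (adjusted p = 1.12e-05). IRF1, a transcription factor that links NF-kB and interferon responses, was highest in T98G. IRF1 stood at 5.76 (mimic) and 5.30 (control) in A172, 7.63 (mimic) and 7.89 (control) in T98G, and 6.33 (mimic) and 6.22 (control) in U87MG. The lines did not overlap, with A172 minus T98G at -2.23 ± 0.16 (adjusted p = 7.1e-05), or 4.68-fold lower, and T98G minus U87MG at 1.48 ± 0.16 (adjusted p = 0.00045).

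Proteins that carry the signal to NF-kB and receptors for the member cytokines were listed separately. Of 28 signalling proteins tested, 9 were higher and 9 lower in A172 than in the mean of the other lines, beside 27% of all genes higher and 27.4% lower, with a median difference of -0.012. The lowest in A172 was MYD88, the adaptor of IL1 and Toll-like receptors, at -1.45 ± 0.076 (adjusted p = 1.54e-05), followed by BIRC2, a ubiquitin ligase of the TNF receptor complex, at -0.91 ± 0.088 (adjusted p = 0.000213). TRAF5 and TAB3, an adaptor and a kinase partner in this pathway, were higher in A172, by 1.08 ± 0.13 (adjusted p = 0.000643) and 0.99 ± 0.081 (adjusted p = 0.000101). Of 9 receptors tested, 6 were lower and 0 higher in A172 by limma, beside the same shares of all genes. Against T98G alone 4 were lower, since TNFRSF1B and IL6R were not called there. IL1R1 stood at 4.47 (mimic) and 4.99 (control) in A172, 7.20 (mimic) and 7.37 (control) in T98G, and 7.88 (mimic) and 7.80 (control) in U87MG. IL1R1, the receptor of IL1A and IL1B, was thus low on both A172 arrays, with A172 minus the mean of the other lines at -2.83 ± 0.13 (adjusted p = 8.14e-06). TNFRSF1B, a TNF receptor, was at -1.52 ± 0.14 (adjusted p = 0.00016), IL6ST at -0.83 ± 0.082 (adjusted p = 0.000231) and TNFRSF1A at -0.55 ± 0.075 (adjusted p = 0.00102); TNFRSF1B was high in U87MG alone, at 7.79 (mimic) and 8.16 (control), beside 4.76 to 5.03 in the other lines.

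AP-1 and C/EBP factors bind beside NF-kB at many of these genes. Of 10 tested, 1 was higher and 6 were lower in A172 than in the mean of the other lines, beside 27% of all genes higher and 27.4% lower. FOSL1 was at -1.51 ± 0.088 (adjusted p = 2.45e-05), CEBPB, an activator of IL6 and CXCL8, at -1.24 ± 0.11 (adjusted p = 0.000138), JUN at -0.58 ± 0.10 (adjusted p = 0.00231) and JUND at 0.57 ± 0.11 (adjusted p = 0.00498). Against T98G alone 4 were lower (CEBPB, CEBPD, FOSB and FOSL1) and 2 higher (JUNB and JUND), beside 25.4% and 25.1% of all genes. Against U87MG alone 5 were lower (ATF3, CEBPB, FOSL1, FOSL2 and JUN) and 1 higher (JUND), beside 26.9% and 27.3%. JUN was thus not called against T98G. The part of these factors in the levels above was not tested.

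After the mimic no member passed the test. With the line as a block, limma called 0 of the 27 tested members after the mimic at an adjusted p under 0.05, beside 1.11% of all genes (0.319% higher and 0.789% lower). An unadjusted p under 0.05 was reached by 6 members, beside 11.8% of all genes. The median of mimic minus control over the 27 was -0.0020, against 0.0068 over all genes. Without the filter 0 of 37 were called, beside 0.326% of all genes. In the same direction in all 3 lines, 7 tested members were higher (CSF3, CCL5, NFKB1, NFKB2, TNFAIP3, TRAF1 and VCAM1), beside 18.5% of all genes, and 2 were lower (IL6 and CXCL1), beside 15.8%.

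Of the ligands, CCL2 averaged -0.25 ± 0.23 for mimic minus control (SD over the lines, n = 3; unadjusted p = 0.0454, adjusted p = 0.403), with -0.43 in A172, 0.0088 in T98G and -0.33 in U87MG. In the other means of mimic minus control the SD over the lines also follows the sign. The mean difference was 0.24 ± 0.091 (adjusted p = 0.281) for CCL5 and 0.18 ± 0.062 (adjusted p = 0.403) for CSF3. Each had the same sign in every line. CXCL8 had the largest single difference of the ligands and the least alike lines. It stood 0.69 lower with the mimic than with the control in A172, 0.11 lower in T98G and 0.38 higher in U87MG, so that the mean was -0.14 ± 0.53. IL6 averaged -0.12 ± 0.10 and IL1B -0.17 ± 0.20, with adjusted p of 0.624 and 0.54. IL33, under the filter, differed by 0.12 in A172, 0.14 in T98G and 0.46 in U87MG.

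NFKB1 came nearest to the threshold among the members. Its array values are given above, and the mimic array was higher than the control in each line, by 0.42 in A172, 0.25 in T98G and 0.30 in U87MG. The mean difference was 0.32 ± 0.085 (SD, n = 3), 1.25-fold, with an unadjusted p of 0.00412 and an adjusted p of 0.145. It passed with the lowest 50% of genes left out (adjusted p = 0.0459) and with a variance prior that follows the mean level (adjusted p = 0.034), and in the other alternatives the adjusted p lay between 0.114 and 1. The other subunits averaged 0.10 ± 0.11 (NFKB2), -0.089 ± 0.086 (RELA) and 0.0033 ± 0.29 (RELB).

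VCAM1 had the largest mean difference, 0.43 ± 0.38 (SD over the lines). It rested on 0.80 in T98G and 0.43 in A172, with 0.040 in U87MG, where the gene lay below the filter level. In A172 the control array (4.0) also lay below that level and the mimic array (4.43) just above it. Its adjusted p was 0.301, and without T98G the mean was 0.24. TRAF1 averaged 0.20 ± 0.11 (adjusted p = 0.393) and TNFAIP3 0.18 ± 0.13 (adjusted p = 0.469), positive in every line, while NFKBIA averaged 0.065 ± 0.13 with a negative value in A172. IRF1 differed in sign between lines, with 0.46 in A172, -0.26 in T98G and 0.10 in U87MG. ICAM1, SOD2 and PTGS2 differed by at most 0.20 in any line.

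Within a line there is no replicate and no test. A difference of at least 0.5 was seen in A172 for CXCL8 alone, lower with the mimic, as in 1.72% of all genes, and in T98G for VCAM1 alone, higher with the mimic, as in 1.46% of all genes (2.24% were lower). In U87MG no member reached it, beside 1.38% of all genes higher and 1.85% lower. The differences between the lines' responses were tested with an interaction term in limma. No member passed for A172 against the other lines, beside 0.0362% of all genes, nor for T98G or U87MG, beside 0% of all genes in each case. An unadjusted p under 0.05 was reached by 3 members for A172, 2 for T98G and 3 for U87MG, beside 4.92%, 6.28% and 4.53% of all genes (680, 867 and 625 genes). CXCL8 in A172 differed from the other lines by -0.82 ± 0.24 (SE; adjusted p = 0.884), and VCAM1 in T98G by 0.57 ± 0.21 (SE; adjusted p = 0.701).

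**Figure D3:**
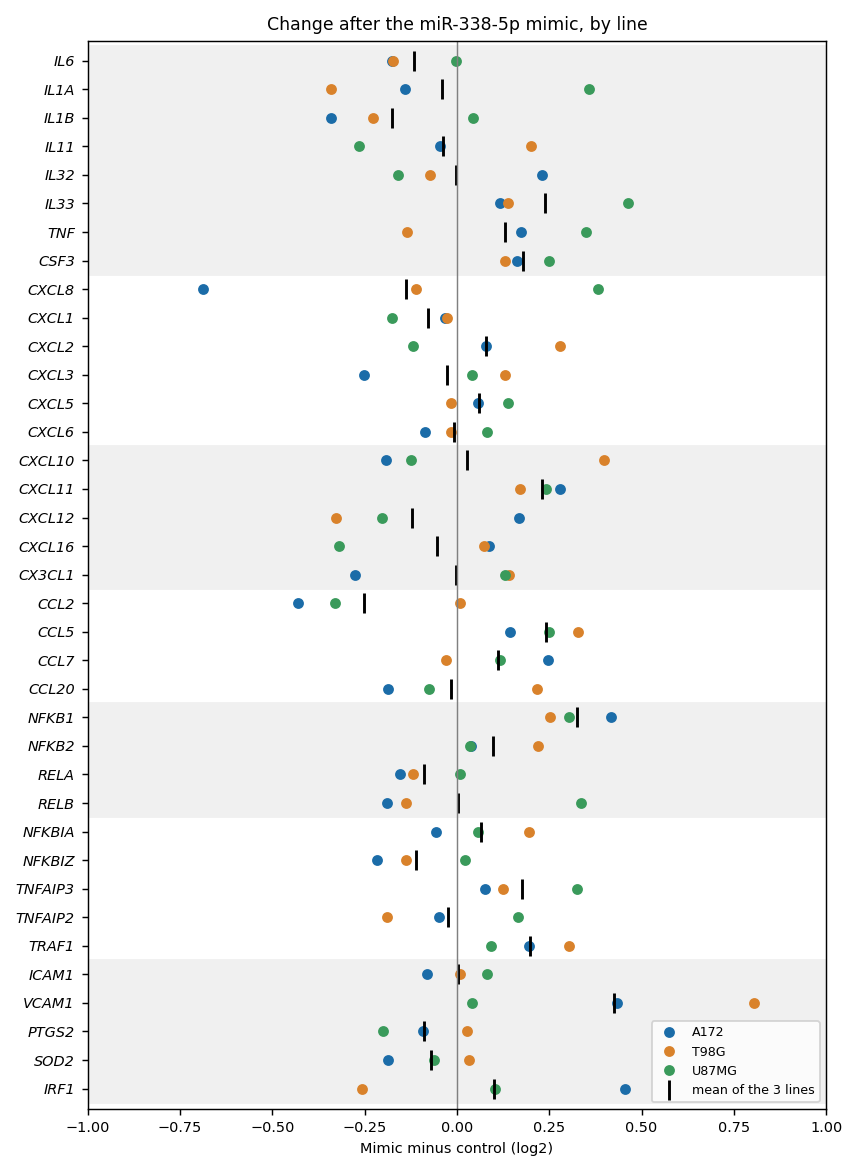
Mimic minus control on the log2 scale (horizontal axis) for each of the 37 members, with a circle for each line and a black bar at the mean of the 3 lines. Circles lie on both sides of 0; CXCL8 in A172 (-0.69) and VCAM1 in T98G (0.80) lie farthest out, and the 3 circles of NFKB1 lie together between 0.25 and 0.42.

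The lists beside the members held a contrast in A172. Of 20 interferon-stimulated genes tested, 16 were at least 0.5 higher with the mimic than with the control in A172, beside 1.96% of all genes, and their median difference was 1.22 there, beside -0.14 in T98G and -0.017 in U87MG. IFIT1 stood at 8.63 (mimic) and 6.26 (control) in A172, 6.29 (mimic) and 6.65 (control) in T98G, and 4.38 (mimic) and 4.96 (control) in U87MG. IFIT1, which binds viral RNA, was thus highest on the A172 array with the mimic, and its response in A172 exceeded that in the other lines by 2.83 ± 0.19 (adjusted p = 0.0143); OAS1, IFIT2 and IFI44L also passed this test. Of the members that interferon induces, CXCL10 stood at 2.28 with the mimic and 2.47 with the control in A172, and CXCL11 at 2.47 with the mimic and 2.20 with the control, both under the filter level. The 27 tested members had medians at -0.045 in A172, 0.0088 in T98G and 0.044 in U87MG. IRF1, which interferon also induces, was 0.46 higher with the mimic in A172, and its response there exceeded that of the other lines by 0.53 ± 0.21 (adjusted p = 0.972).

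**Figure D4:**
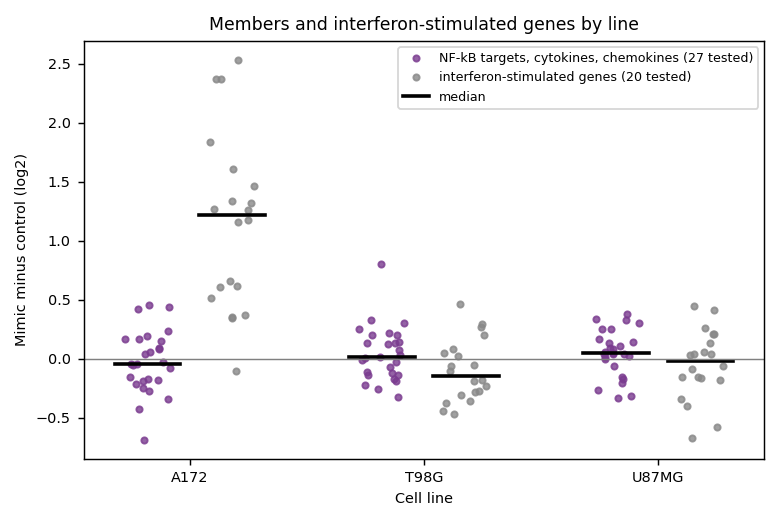
Mimic minus control on the log2 scale (vertical axis) in each line, with a point for each tested gene of the members (purple, 27 genes) and of the interferon-stimulated genes (grey, 20 genes) and a bar at the median; horizontal scatter within a column has no meaning. In A172 the grey median is 1.22 and the purple median lies near 0, while in T98G and U87MG both medians lie near 0.

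Of 28 NF-kB signalling proteins, 9 receptors and 10 AP-1 and C/EBP factors tested, limma called 0 after the mimic in each list, beside 1.11% of all genes. An unadjusted p under 0.05 was reached by 4, 2 and 0 of them, beside 11.8% of all genes. The receptor list held the gene nearest to the threshold, IL1RAP, the shared chain that receptors for IL1A, IL1B and IL33 need in order to signal; it is named here after its values were seen. IL1RAP stood at 6.29 (mimic) and 6.77 (control) in A172, 6.50 (mimic) and 7.16 (control) in T98G, and 6.78 (mimic) and 7.18 (control) in U87MG. The mimic array was the lower one in every line. The mean difference was -0.51 ± 0.14 (SD, n = 3; adjusted p = 0.0505), and it passed in 5 alternatives, with adjusted p between 0.00604 and 0.046. It did not pass without the filter (adjusted p = 0.103), with 1 line left out (adjusted p between 0.119 and 0.200) or without the line in the model (adjusted p = 1.0).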

How the data were processed

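RNA of A172, T98G and U87MG with the miR-338-5p mimic or a negative control was measured on 6 arrays. The authors deposited log2 expression values made by RMA with oligo in R 3.0.1, per the submitters' processing notes; the sources used here give no filter or batch. These values were used as deposited. RMA's quantile normalisation gives arrays 1 distribution, so a shift of most genes would be largely removed. No scan batch was analysed here, so a batch that followed the groups cannot be told apart from the treatment.

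The platform annotation gave 1 symbol for 19460 of 33297 probe sets, several for 1754 and none for 12083; 19429 could be looked up in RefSeq genes (GRCh38.p14), which gave names and neighbours. The brightest probe set was used for 769 genes with several. Tests used limma 3.58.1 under R 4.3.3, with linear fits, moderated two-sided p-values and Benjamini-Hochberg adjustment over the 13812 genes above the filter, and were tested on simulated data. The line was the block for the mimic, with 2 residual degrees of freedom and 6.56 in all; the interaction fits had 1 residual degree of freedom. Titles name each array's line, which pairs the arrays; the A172 pair's deviations from the group means correlated at 0.958, the T98G pair's at 0.951 and the U87MG pair's at 0.958. The number of arrays limits the precision. Array values are given for members that passed any test, for the 12 of largest difference between A172 and the other lines and the 6 of largest change in 1 line; other lists are named by calls and up to 4 largest differences. Members and lists were chosen with earlier results of these data known.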

Additional observations from a re-analysis of the deposited data

Results flagged for a closer look

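The response of 4 interferon-stimulated genes, none of them a member, differed between lines by limma's interaction test. The mimic response in A172 minus that in T98G and U87MG was 2.83 for IFIT1 (adjusted p = 0.0143), 2.51 for IFI44L (adjusted p = 0.0176), 2.32 for IFIT2 (adjusted p = 0.0176) and 1.84 for OAS1 (adjusted p = 0.0487), each on the log2 scale. IFI44L stood at 6.54 (mimic) and 4.01 (control) in A172, at 6.48 (mimic) and 6.28 (control) in T98G, and at 8.63 (mimic) and 8.78 (control) in U87MG, so that the A172 control array was the low one. The A172 response of each gene rests on 1 array with the mimic and 1 with the control. Groups of 3 arrays were not examined for outlying samples.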

How the results depend on the processing

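With the lowest 50% of genes left out, 1 of 14 members tested (NFKB1) was called after the mimic, against 0, beside 360 of 9208 genes. With a variance prior that follows the mean level, the same member was the only 1 of 27 called, beside 486 of 13812 genes. Leaving out the lowest 50% also gave 13 members called for A172 against the mean of the other lines, against 23, beside 6158 of 9208 genes. It gave 12 for A172 minus U87MG, against 21, beside 6090 genes, and 9 for T98G minus U87MG, against 19, beside 5582 genes. Only 14 members were tested there, against 27. Without A172, without T98G or without U87MG in turn, 0 members were called after the mimic each time. Without T98G or without U87MG, 18 to 20 members were called for A172 against the rest. The share of all genes called in those fits is not given here, so this count alone does not set the members apart. In the paired design, leaving the line out of the model (no replicate block) gave 0 members and 0 genes called after the mimic, against 0 members and 153 genes with the block; without both U87MG arrays 0 genes were called. The block changed no member's call. Of single-gene results, 776 kept direction and side of the threshold, 33 lost a call, 7 gained one and 19 changed sign. With quantile normalisation repeated on the genes above the filter, the changes after the mimic of IL32, RELB and ICAM1 became 0.0074, -0.0030 and -0.0083, all uncalled. Leaving out each line in turn, the mean change after the mimic lay between -0.40 and 0.14 for CXCL8, -0.11 and 0.086 for CXCL3, -0.073 and 0.14 for CX3CL1, -0.077 and 0.28 for IRF1, -0.12 and 0.078 for IL32, -0.12 and 0.059 for TNFAIP2, -0.16 and 0.078 for IL11, -0.12 and 0.081 for CXCL16, -0.16 and 0.10 for RELB and -0.037 and 0.045 for ICAM1. A172 minus the rest lay between -2.81 and 1.00 for CCL2, -2.91 and 0.68 for VCAM1, -2.60 and 0.24 for CSF3, -0.72 and 0.22 for CXCL1 and -1.58 and 0.14 for NFKBIZ without U87MG or T98G, since these members are high in 1 line. The call was also lost for CXCL12 (-0.029) and TRAF1 (-0.046) without T98G, and for CX3CL1 (0.031) and NFKB2 (0.24) without U87MG, members that are high or low in the line left out. The cause of the other losses was not tested. Low levels limit the sizes given for IL1B, CXCL12, CXCL16 and VCAM1.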
